A study of Rattus norvegicus with 4 samples.

Results

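Protocadherin genes were followed in primary cells from rat embryonic cerebral cortex that had been kept on 4 kinds of hydrogel. The members were all genes whose symbol starts with Pcdh and that had at least 1 read in at least 1 library, which gave 29 of the 18755 genes listed. By the letter or digit after Pcdh, 18 were clustered (Pcdha5, 15 Pcdhb genes, Pcdhga1 and Pcdhga5) and 11 were non-clustered. The cells came from Sprague Dawley (SD) embryos at embryonic day 16, were seeded at 100000 cells per well in 5 wells per hydrogel, and were cultured for 24 h in Neurobasal medium with B27. The hydrogels were SFMA, N-SFMA, L-SFMA (L@SFMA in its treatment label) and the hydrogel with both letters, NL-SFMA (NL@SFMA), and the cells, stage, medium and time were the same for all of them. The labels do not spell out N or L, nor do they say whether the wells of a hydrogel were combined. Each hydrogel had 1 library of poly(A) RNA, with 14172205 to 17553098 counted reads. No spread between replicates could be measured, so no p-value is given, and the labels name no repeat culture. Every interval below is a 95% counting interval that covers the sampling of reads and nothing else.

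Protocadherins are the largest branch of the cadherin superfamily of calcium-dependent adhesion proteins. The clustered genes lie in tandem arrays. In the alpha and gamma arrays each variable first exon is spliced to a shared set of constant exons, whereas a beta gene has 1 large coding exon. Single neurons express different combinations of clustered isoforms, chosen through promoters bound by CTCF and cohesin, and homophilic matching of these combinations serves the self-avoidance of neurites. Non-clustered protocadherins stand alone in the genome and are grouped into delta-1 and delta-2 classes by their cytoplasmic motifs. They take part in cell sorting, axon extension and synapse formation in the developing brain.

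The beta genes carry a shared promoter word, which is shown here because these genes make up most of the members. Promoter sequences from RefSeq (build GRCr8, from 250 bases before to 50 after each annotated start) were matched by symbol for 25 of the 29 members. The 10-letter word found in the most Pcdhb promoters was GGTGGCGCTG, which holds the CGCT core known from the conserved element of clustered protocadherin promoters. Searched on both strands, it was present in 15 of 19 Pcdhb promoters (78.9%) and in 74 of all 33469 promoters of the same length (0.221%). It was found in 0 of 15 Pcdhg promoters, 0 of 1 Pcdha promoter and 0 of 11 promoters of non-clustered genes. The word was picked because it recurs in the Pcdhb promoters, so its share there is a description. The CGCT core alone was in 60.9% of all promoters. The windows below are those of 9 Pcdhb genes described individually further on, with the word in capitals.
Pcdhb2 (chr18:29279913-29279964, plus strand): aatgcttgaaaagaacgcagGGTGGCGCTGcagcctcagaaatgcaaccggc
Pcdhb3 (chr18:29285594-29285645, plus strand): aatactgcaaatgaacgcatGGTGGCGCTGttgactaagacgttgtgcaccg
Pcdhb5 (chr18:29302394-29302445, plus strand): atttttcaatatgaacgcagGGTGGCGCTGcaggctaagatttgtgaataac
Pcdhb6 (chr18:29320142-29320193, plus strand): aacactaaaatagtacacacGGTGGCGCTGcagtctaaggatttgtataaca
Pcdhb7 (chr18:29328988-29329039, plus strand): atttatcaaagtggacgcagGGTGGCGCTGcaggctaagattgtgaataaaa
Pcdhb8 (chr18:29339248-29339299, plus strand): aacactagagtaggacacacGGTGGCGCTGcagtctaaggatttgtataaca
Pcdhb10 (chr18:29391768-29391819, plus strand): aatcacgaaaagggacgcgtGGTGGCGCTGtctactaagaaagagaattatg
Pcdhb20 (chr18:29485800-29485851, plus strand): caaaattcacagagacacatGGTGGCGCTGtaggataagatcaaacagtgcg
Pcdhb21 (chr18:29492139-29492190, plus strand): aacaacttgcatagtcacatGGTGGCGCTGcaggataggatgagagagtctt
In 9 of the measured Pcdhb genes the word began 46 to 98 bases before the annotated start, in Pcdhb6 and Pcdhb8 it began 229 and 208 bases before it, and in Pcdhb16 it lay after the start. The windows of Pcdhb6 and Pcdhb8 were identical at 49 of 52 positions, which was the closest pair. Beta genes are related in sequence, but their transcripts were not compared here. Reads shared between beta genes may have been split or dropped, and the value of any single Pcdhb gene is uncertain for that reason.

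Protocadherin reads were more abundant in the other 3 libraries than in SFMA. Summed over the 29 members they took 603 CPM (counts scaled to a common library total) with SFMA. The sum was 839 CPM with N-SFMA, 1042 CPM with L-SFMA and 956 CPM with NL-SFMA. The ratio to SFMA was 1.39 (1.36 to 1.43), 1.73 (1.69 to 1.77) and 1.59 (1.55 to 1.63) in that order. Of the 29 members, 27 had their lowest level on SFMA, and the other 2, Pcdhb9 and Pcdhb10, had it on N-SFMA. SFMA was the lowest library for 26 of the 28 members with at least 50 reads and for 35.1% of all 13297 genes with that many. Among genes with model lengths in the range of the non-clustered members it was the lowest for 64.1%, and in the range of the Pcdhb members for 41.1%. NL-SFMA had the highest level for 17 members, L-SFMA for 11 and N-SFMA for 1, Pcdhb8. The highest library was not counted over all genes, so this split cannot be read as particular to the family. The make-up of the family's reads differed as well. The 2 Pcdhg models held 56.5% of the family's reads on SFMA and 40.7% on NL-SFMA, whereas the share of the single Pcdha model was 8.63% on SFMA and 16.1% on NL-SFMA. Delta-2 genes took 19.9% and 19.3% on SFMA and N-SFMA, and 24.9% and 23.2% on the hydrogels with L in their name. These shares follow their most abundant genes. Pcdh8 held 2108 of the 4244 delta-2 reads on L-SFMA and 905 of 3139 on NL-SFMA, whereas Pcdh17, Pcdh18 and Pcdh19 were highest on NL-SFMA. Pcdhga5 held 5922 of the 5982 Pcdhg reads on SFMA and 5395 of 5523 on NL-SFMA.

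**Figure D1:**
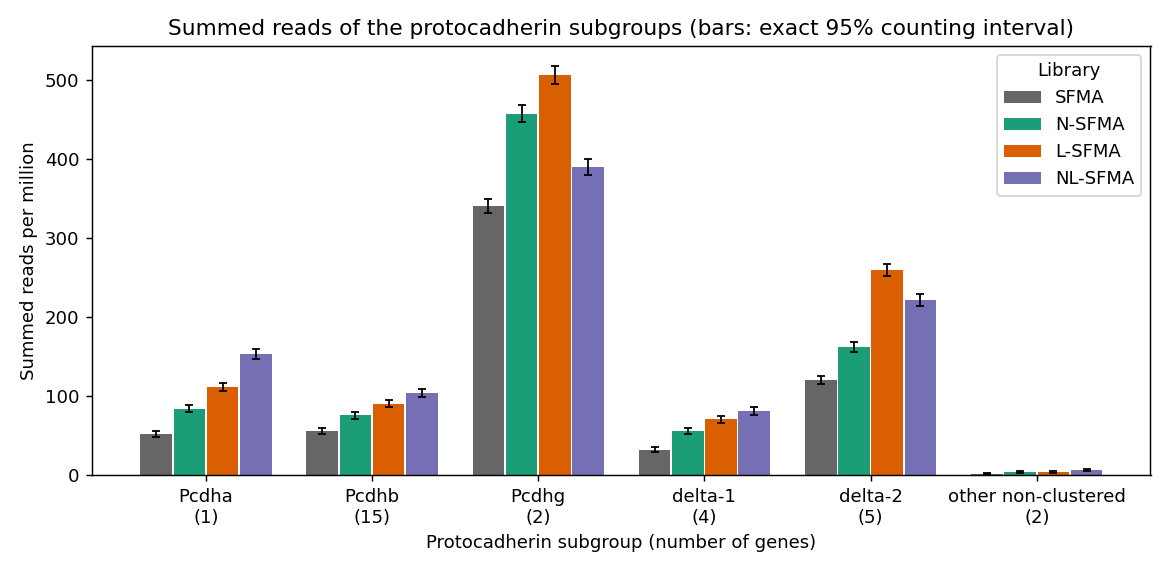
Summed CPM (vertical axis, from 0) of each protocadherin subgroup (horizontal axis, number of genes in brackets) in the 4 libraries, with exact 95% counting intervals as error bars. Pcdhg and delta-2 sums were highest on L-SFMA (506 and 260 CPM), while the Pcdha, Pcdhb and delta-1 sums were highest on NL-SFMA (154, 104 and 80.9 CPM).

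Differences between libraries were counted at 2-fold or more on a log2 CPM scale with 0.5 reads added, over genes with at least 50 reads in the 4 libraries together. Of the members, 28 passed this filter and Pcdh15, with 21 reads, did not. On N-SFMA, 3 of 28 were at least 2-fold higher than on SFMA (Pcdh19, Pcdh20 and Pcdhb21), where 3.51% of all 13297 genes tested were. On L-SFMA, 11 of 28 were higher by this measure, against 8.54% of all genes tested. On NL-SFMA, 16 of 28 were higher, against 15.1%. None of the 28 was 2-fold lower in any of these comparisons, where 5.49%, 4.82% and 19.4% of all genes tested were. The 3 comparisons share the SFMA library, so a low value there moves all of them together. The median log2 difference of the 10 non-clustered members tested was 0.81, 1.06 and 1.68 for N-SFMA, L-SFMA and NL-SFMA in turn, and that of the 18 clustered members was 0.57, 0.76 and 0.97. The median over all genes tested was -0.02, 0.08 and -0.10. Pcdhb2, Pcdhb6 and Pcdhb21 had 7 to 11 reads on SFMA and passed the filter through the other libraries, so their place among the higher genes follows in part from the filter.

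Gene model length moved with these differences across the whole table, and the non-clustered protocadherin models are long. The non-clustered models measured 4559 to 8923 bases, with a median of 6030, against a median of 3095 over all genes tested. Among the 2900 genes tested with models in that range, 4.97%, 15.1% and 29.6% were at least 2-fold higher than on SFMA, again in that order. With the trend of difference on length subtracted, the median of the non-clustered members was 0.36, 0.55 and 0.92, and 2, 1 and 4 of 10 were still 2-fold higher, against 1.76%, 2.24% and 8.59% of the genes in that range. The Pcdhb models measured 2334 to 6753 bases, and in that range 2.8%, 6.86% and 14.6% of 7650 genes were 2-fold higher. Subtracting the trend gave Pcdhb medians of 0.66, 0.66 and 1.16, in place of 0.52, 0.75 and 0.91, and 3, 4 and 8 of 15 were then 2-fold higher, against 2.29%, 3.36% and 10.2% of the genes in that range. Pcdhb21 was among these in each comparison, and Pcdhb2 and Pcdhb6 were among them on L-SFMA and NL-SFMA. Since these genes passed the filter through libraries other than SFMA, the Pcdhb counts follow in part from the filter. Over all 28 members, 5, 5 and 12 were then 2-fold higher, against 3.02%, 4.75% and 11.8% of all genes tested, and 0, 1 and 1 were 2-fold lower, against 4.32%, 3.54% and 11.6%. On NL-SFMA 10 members were past 2-fold on both scales: Pcdh9, Pcdh11x, Pcdh19, Pcdh20, Pcdhb2, Pcdhb3, Pcdhb6, Pcdhb6l, Pcdhb11 and Pcdhb21. The place of Pcdhb2, Pcdhb6 and Pcdhb21 in this list also follows in part from the filter. What gives rise to the length trend was not tested.

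**Figure D2:**
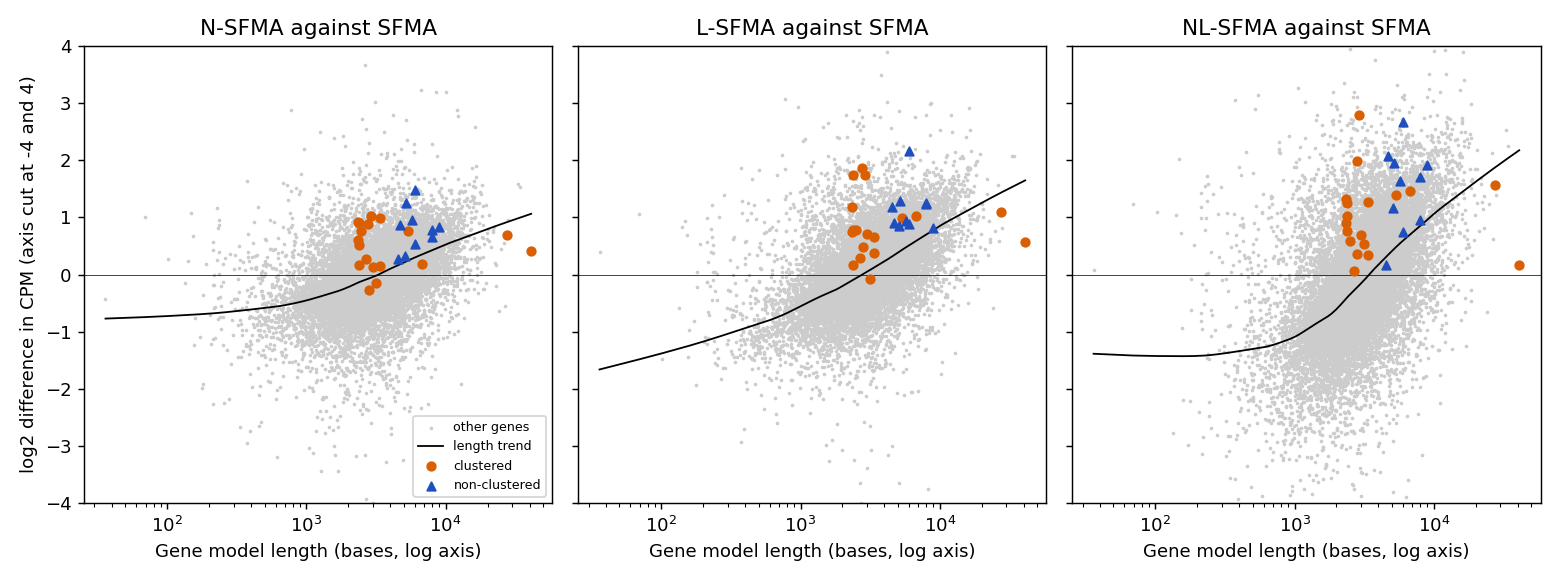
Log2 difference in CPM from SFMA (vertical axis) against gene model length in bases (horizontal log axis) for N-SFMA, L-SFMA and NL-SFMA; grey points are the other genes tested, circles clustered and triangles non-clustered protocadherins, and the line is the trend over all genes tested, with the vertical axis cut at -4 and 4. All 10 non-clustered members lie above 0 in each panel, and most lie above the line, while Pcdha5 and Pcdhga5, the longest models of the family at 27701 and 41093 bases, lie below it in each.

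The delta-1 genes differed most on NL-SFMA, except Pcdh1. Levels from here on are FPKM, which is per kilobase of gene model, and folds are ratios of CPM without added reads. Where 4 levels or 3 folds follow each other, plain SFMA comes first among the levels, then N-SFMA, then L-SFMA, then NL-SFMA, and each fold is against SFMA. Pcdh9, a neuronal adhesion gene with a very large genomic span, was at 1.79, 3.49, 3.42 and 5.60 FPKM. N-SFMA and L-SFMA lay together at 1.95-fold (1.62 to 2.36) and 1.91-fold (1.59 to 2.31) of SFMA, and NL-SFMA stood above them at 3.13-fold (2.63 to 3.75). The X-linked Pcdh11x was also highest on NL-SFMA, at lower levels, with 0.391, 0.722, 0.734 and 1.66 FPKM. Its folds were 1.85 (1.17 to 2.97), 1.88 (1.20 to 3.00) and 4.26 (2.85 to 6.52). Pcdh7, whose cytoplasmic part binds protein phosphatase 1, was near the lower limit of the data with 15, 24, 25 and 47 reads and at most 0.372 FPKM. Its fold on NL-SFMA was 3.88 (2.13 to 7.47), and the intervals on N-SFMA and L-SFMA held 1. Pcdh1, an adhesion protein of neurons and epithelia, was instead highest on L-SFMA. It measured 2.44, 3.83, 5.74 and 4.73 FPKM, with folds of 1.57 (1.37 to 1.81), 2.36 (2.07 to 2.68) and 1.94 (1.69 to 2.23). With the length trend subtracted the log2 difference on NL-SFMA was 1.10 for Pcdh9, 1.73 for Pcdh11x, 0.96 for Pcdh7 and 0.10 for Pcdh1.

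The delta-2 genes held both the most abundant non-clustered member and the one furthest from SFMA. Pcdh19, an X-linked gene that associates with N-cadherin and is mutated in an inherited epilepsy, was at 0.668, 1.86, 3.00 and 4.30 FPKM. The 4 libraries were set apart beyond counting error, with folds of 2.79 (2.10 to 3.73), 4.49 (3.46 to 5.91) and 6.44 (4.98 to 8.42). After the length trend was subtracted the log2 differences of Pcdh19 were 1.17, 1.64 and 2.08, all past 2-fold. Pcdh17, which recruits the actin-regulating WAVE complex during collective axon extension, had the same order at 1.11, 1.89, 2.65 and 3.63 FPKM. Its fold on NL-SFMA was 3.28 (2.72 to 3.98), and its log2 difference there was 0.87 with the length trend subtracted. Pcdh18, a binding partner of the reelin adaptor Dab1, was at 6.16, 7.70, 11.1 and 13.9 FPKM, so it too had the order of Pcdh19. The fold of Pcdh18 was 1.25 (1.11 to 1.40), 1.80 (1.61 to 2.00) and 2.25 (2.03 to 2.51). Its log2 differences were 0.10, 0.45 and 0.74 with the length trend subtracted, so it was then not past 2-fold.

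Pcdh8 and Pcdh10 did not follow that order. Pcdh8, also named arcadlin, an activity-regulated protocadherin that promotes the internalisation of N-cadherin, was at 12.4, 15.1, 28.3 and 14.01 FPKM. The L-SFMA library alone was high, at 2.27-fold of SFMA (2.11 to 2.45), while N-SFMA was at 1.21-fold (1.11 to 1.32) and NL-SFMA at 1.13-fold (1.03 to 1.23). Pcdh8 had the highest FPKM of the non-clustered genes in each library, but on NL-SFMA its interval of 13.1 to 14.95 overlapped that of Pcdh18, 13.0 to 14.8. Pcdh10, a WAVE-recruiting gene that also guides axons through the ventral forebrain, was at 3.17, 4.60, 5.84 and 5.34 FPKM. Its L-SFMA and NL-SFMA levels differed by less than counting error, with a ratio of NL-SFMA to L-SFMA of 0.91 (0.81 to 1.04). With the length trend subtracted the log2 differences of Pcdh8 were 0.11, 0.87 and -0.14, and those of Pcdh10 were 0.24, 0.37 and 0.16.

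Of the 2 remaining non-clustered genes, Pcdh20, which is expressed in subsets of brain and olfactory neurons, was at 0.286, 0.688, 0.709 and 1.13 FPKM. All 3 libraries were above SFMA beyond counting error, at 2.41-fold (1.48 to 4.00), 2.48-fold (1.54 to 4.09) and 3.95-fold (2.52 to 6.40). Pcdh15, known as a tip-link component of sensory hair cells, had 1, 3, 9 and 8 reads. Its folds were 3.41 (0.27 to 179), 9.67 (1.34 to 424) and 9.91 (1.33 to 440), so the L-SFMA and NL-SFMA intervals left 1 by little and the size of the difference is poorly fixed.

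**Figure D3:**
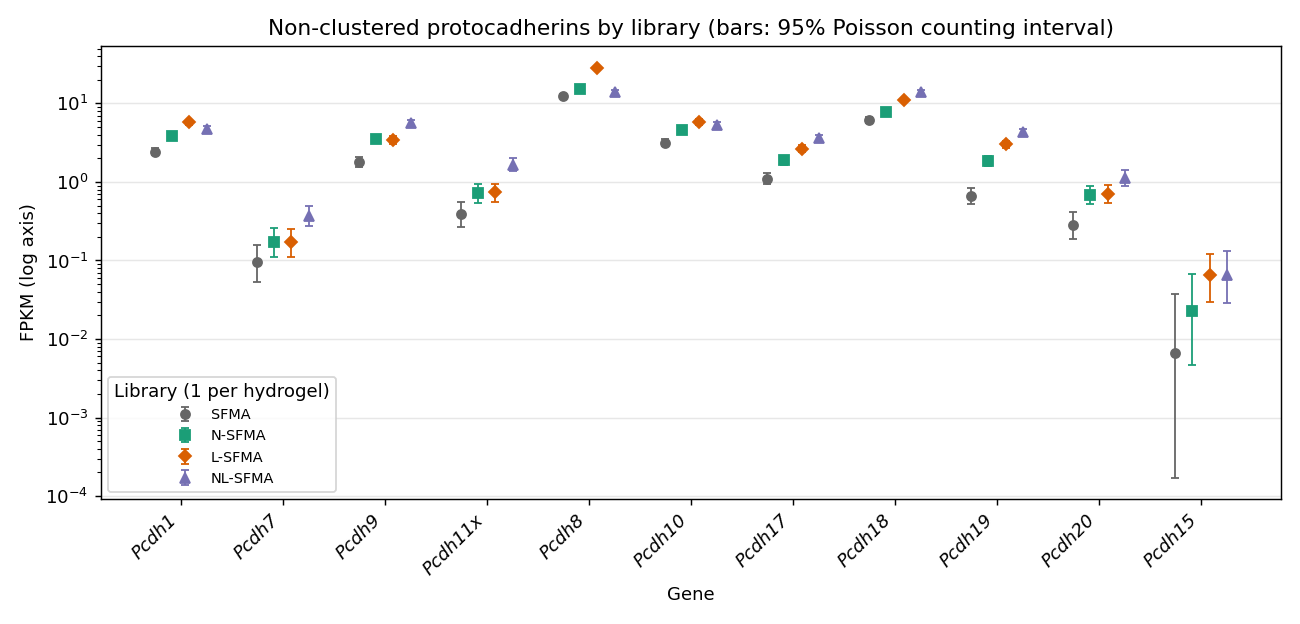
FPKM (vertical log axis) of the 11 non-clustered protocadherins (horizontal axis) in the 4 libraries, with 95% Poisson counting intervals as error bars. SFMA is lowest for each gene, Pcdh8 peaks on L-SFMA at 28.3 FPKM, and Pcdh19 spans the widest range of the genes above 0.5 FPKM, from 0.668 to 4.30.

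The alpha and gamma arrays were each represented by few and very long gene models. Pcdha5 had a model of 27701 bases and Pcdhga5 one of 41093, the longest of all genes tested, whereas the Pcdhb models had a median of 2787. RefSeq places the name Pcdha5 with other alpha names among the synonyms of a single gene, Pcdha4. With models of these lengths and no exon list, neither isoform choice nor the level of a single isoform was read from Pcdha5 or Pcdhga5. Pcdha5 had 913, 1300, 1814 and 2178 reads, or 1.88, 3.04, 4.01 and 5.55 FPKM. Its folds of 1.62 (1.49 to 1.76), 2.13 (1.97 to 2.31) and 2.95 (2.73 to 3.20) put the libraries in the same order as Pcdh19. Pcdhga5 held the most reads of any member, with 5922, 6969, 8160 and 5395, or 8.21, 11.0, 12.2 and 9.26 FPKM. It was highest on L-SFMA at 1.48-fold (1.43 to 1.53) and stood at 1.34-fold (1.29 to 1.39) on N-SFMA and 1.13-fold (1.09 to 1.17) on NL-SFMA. The 2 long models thus differed in opposite directions between L-SFMA and NL-SFMA, with NL-SFMA to L-SFMA ratios of 1.38 (1.30 to 1.47) for Pcdha5 and 0.76 (0.74 to 0.79) for Pcdhga5.

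With the length trend subtracted the log2 differences of Pcdha5 turned to -0.22, -0.34 and -0.32, and those of Pcdhga5 to -0.64, -1.08 and -2.001. Only 19 genes tested had models of at least 20000 bases, so the trend is thinly supported there. Pcdhga1, a separate model of 5376 bases, was at 0.636, 1.09, 1.27 and 1.68 FPKM. Unlike Pcdhga5 it was highest on NL-SFMA, at 2.64-fold (1.93 to 3.65) of SFMA, with a log2 difference of 0.91 after the trend was subtracted.

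The 15 Pcdhb genes were expressed at low levels, with averages over the libraries from 0.481 FPKM for Pcdhb21 to 3.84 for Pcdhb7. At 1 FPKM or more there were 11 of them with SFMA, 11 with N-SFMA, 12 with L-SFMA and 13 with NL-SFMA. Their summed reads were 56.2, 75.9, 90.4 and 104 CPM, with folds of 1.35 (1.24 to 1.47), 1.61 (1.48 to 1.75) and 1.85 (1.71 to 2.01). The counting interval lay above 1 for 5, 11 and 12 of the 15 genes in these comparisons, against 31.1%, 39.6% and 36.4% of all genes tested and 37%, 47.9% and 42.9% of those in the length range of the Pcdhb models. It lay below 1 for 0 of 15 in each, against 34.1%, 30.5% and 43.3% of all genes tested. The most abundant was Pcdhb7, at 2.59, 4.41, 4.43 and 3.92 FPKM. Its 3 levels above SFMA did not differ from each other beyond counting error. Pcdhb8, at 2.19, 4.15, 3.69 and 4.13 FPKM, showed the same flat pattern, with folds of 1.90 (1.45 to 2.49), 1.68 (1.28 to 2.22) and 1.89 (1.43 to 2.49). Pcdhb3 was at 1.40, 2.81, 2.21 and 3.39 FPKM, so N-SFMA lay above L-SFMA, although their ratio of 0.79 had an interval of 0.62 to 1.01. Pcdhb6l was at 1.69, 1.90, 1.89 and 3.45 FPKM. Only its NL-SFMA level left the range of counting error, at 2.04-fold (1.51 to 2.78), and it was the 1 measured Pcdhb gene with a promoter entry in which the GGTGGCGCTG word was not found. The 12 measured Pcdhb genes with the word had log2 differences on NL-SFMA from 0.06 to 2.80, a range that holds the 1.02 of Pcdhb6l.

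The 3 Pcdhb genes furthest from SFMA on NL-SFMA as counted were Pcdhb21, Pcdhb2 and Pcdhb16. Pcdhb21 had 7, 13, 23 and 42 reads and a fold of 7.43 (3.31 to 19.6) on NL-SFMA. Pcdhb2 had 9, 15, 32 and 30 reads and a fold of 4.13 (1.91 to 9.89). Pcdhb16, the longest Pcdhb model and the one with the most reads, had 129, 129, 245 and 287 reads and a fold of 2.76 (2.23 to 3.42), and its log2 difference of 1.46 was 0.76 with the length trend subtracted. On that scale Pcdhb16 was below the Pcdhb median of 1.16, so it was no longer among the 3 furthest. Pcdhb6, next in size as counted, had 11, 15, 24 and 23 reads and a fold of 2.59 (1.21 to 5.88). The intervals of Pcdhb21, Pcdhb2 and Pcdhb6 are wide, and the size of each of these differences is poorly fixed. At the other end, Pcdhb5, Pcdhb20 and Pcdhb10 had NL-SFMA folds of 1.05 (0.74 to 1.47), 1.28 (0.96 to 1.69) and 1.29 (0.96 to 1.74), which were not distinguishable from SFMA at this depth. Their levels were 1.65, 1.99, 2.02 and 1.72 FPKM for Pcdhb5 and 1.70, 1.90, 2.21 and 2.17 FPKM for Pcdhb20. For Pcdhb10 they were 1.85, 1.53, 2.58 and 2.39 FPKM.

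**Figure D4:**
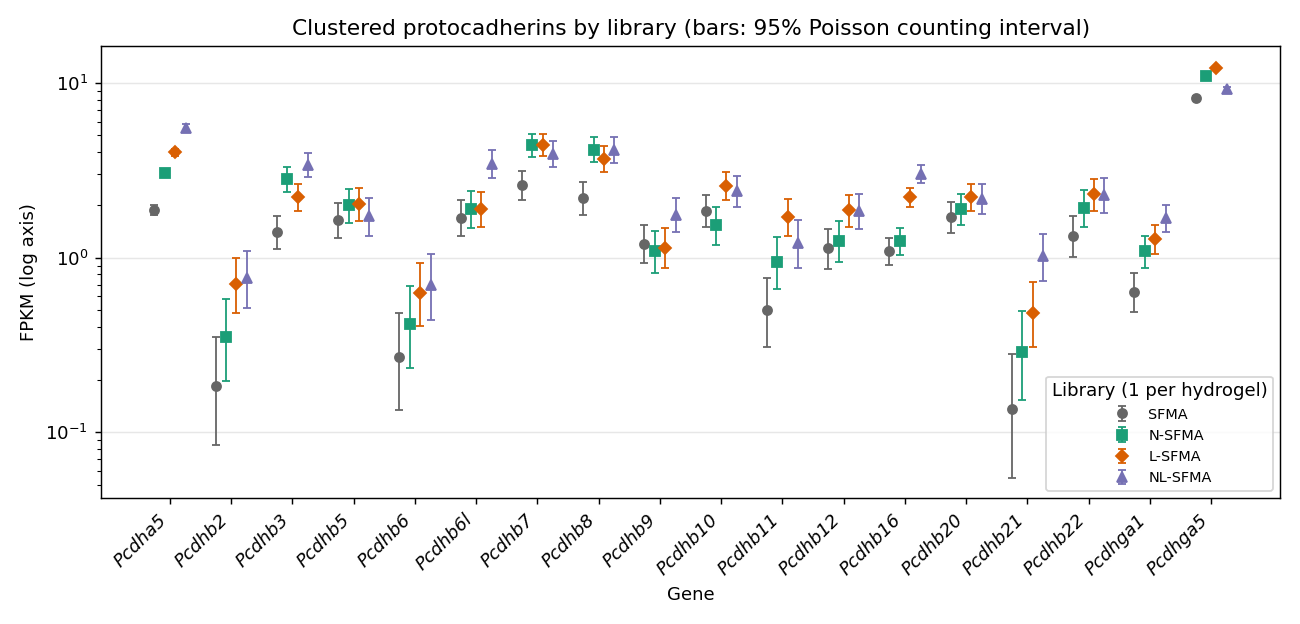
FPKM (vertical log axis) of the 18 clustered protocadherins (horizontal axis) in the 4 libraries, with 95% Poisson counting intervals as error bars. SFMA is the lowest library for 16 of 18 genes, and Pcdhb2, Pcdhb6 and Pcdhb21 have the widest intervals.

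NL-SFMA was also set against the hydrogels with 1 letter, to see where the members stood when both letters are in the name. Against N-SFMA, 6 of 28 members were at least 2-fold higher (Pcdh7, Pcdh11x, Pcdh19, Pcdhb2, Pcdhb16 and Pcdhb21), where 6.07% of all genes tested were, and 0 were lower, where 9.37% were. Against L-SFMA, 3 of 28 were 2-fold higher (Pcdh7, Pcdh11x and Pcdhb21), where 2.69% of all genes were, and Pcdh8 was lower at 0.49-fold (0.46 to 0.54), where 11.8% were. With the length trend subtracted, Pcdh11x, Pcdhb2 and Pcdhb21 were still 2-fold higher than on N-SFMA and Pcdh7, Pcdh19 and Pcdhb16 were not. Pcdhb6l was then past 2-fold as well, making 4 of 28 against 5.93% of all genes tested, and Pcdhga5 was 2-fold lower, where 5.43% were. Against L-SFMA, Pcdh11x and Pcdhb21 were still past 2-fold and Pcdh7 was replaced by Pcdhb6l, where 4.44% of all genes were higher, and Pcdh8 was still lower, where 6.86% were. Pcdh11x was 2.30-fold (1.64 to 3.27) of N-SFMA and 2.26-fold (1.63 to 3.18) of L-SFMA. Between L-SFMA and N-SFMA 0 of 28 members were past 2-fold in either direction, where 2.5% of all genes were higher and 0.782% lower.

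The difference that goes with N was then compared without L (N-SFMA against SFMA) and with L (NL-SFMA against L-SFMA), which are pairs of separate libraries. The log2 ratio with L lay below that without L for 9 of 28 members beyond counting error, above it for 2 (Pcdhb6l and Pcdhb9) and within counting error for 17. Over all genes tested with a read in each library it lay below for 40.6% and above for 20.4%, so the members' count below is no larger a share than that of all genes. The median of the difference between these log2 ratios was -0.38 over the members and -0.18 over all genes tested. For Pcdh8 the log2 ratio was 0.28 without L and -1.01 with L, for Pcdh1 0.65 and -0.28, and for Pcdhga5 0.42 and -0.39. With the length trend subtracted these pairs were 0.11 and -1.01 for Pcdh8, 0.23 and -0.45 for Pcdh1, and -0.64 and -0.93 for Pcdhga5, whose signs were then the same. Pcdh18 had 0.32 and 0.33, and Pcdh11x 0.89 and 1.18. With 1 library in each corner there is no test of these differences between hydrogels.

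**Figure D5:**
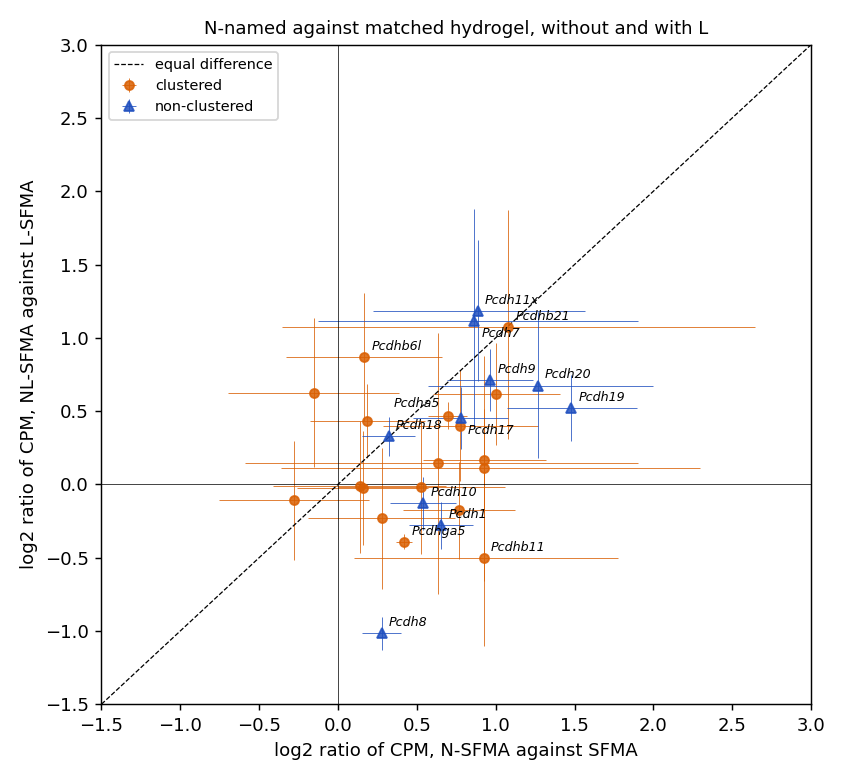
Log2 ratio of CPM of NL-SFMA to L-SFMA (vertical axis) against that of N-SFMA to SFMA (horizontal axis) for the 28 members tested, with exact 95% counting intervals as error bars and a dashed line where both are equal. Pcdh8, Pcdh1 and Pcdhga5 lie in the lower right, above 0 without L and below 0 with it. Pcdhb6l and Pcdhb9 lie above the line beyond counting error, and Pcdh11x lies above it within counting error.

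Genes that act with protocadherins were read from lists of regulators, partners and processing enzymes. Of 18 genes for promoter choice and chromatin, 7 were at least 2-fold higher on NL-SFMA and 1 lower, against 15.1% and 19.4% of all genes tested, with a median log2 difference of 0.58. With the length trend subtracted 4 were higher and 1 lower, against 11.8% and 11.6%, and the median was 0.33. Ctcf and the cohesin subunits Rad21, Smc1a and Smc3 were not among the 7, with log2 differences of 0.63, 0.34, 0.35 and 0.46. The cohesin loader Nipbl was at 3.17, 7.55, 9.21 and 14.4 FPKM. The cohesin regulators Pds5b (7.98, 13.5, 14.4 and 26.7 FPKM) and Pds5a (12.7, 17.6, 21.0 and 36.9 FPKM) had the same order. Nipbl has a model of 11039 bases, and its log2 difference on NL-SFMA was 2.19, or 1.04 with the length trend subtracted. Of 9 WAVE complex genes, 3 were 2-fold higher on NL-SFMA and 1 lower, and 0 were past 2-fold on either side once the length trend was subtracted. They included Nckap1 (42.3, 59.6, 58.6 and 112 FPKM) and Abi2 (25.8, 33.8, 38.5 and 66.2 FPKM), with the small subunit Brk1 lower (96.9, 76.1, 61.9 and 27.9 FPKM). Of 14 kinases and other intracellular partners 1 was higher and 1 lower, the latter being Ppp1ca, the phosphatase subunit bound by Pcdh7, at 105, 76.6, 70.3 and 25.8 FPKM. With the length trend subtracted 2 of the 14 were higher, among them Dab1 with a log2 difference of 1.07, and 1 was lower. Dab1 was at 20.5, 26.8, 27.9 and 35.9 FPKM, and Axin1, a Wnt pathway scaffold, at 23.3, 21.8, 25.9 and 15.1 FPKM.

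Of 7 genes for protocadherin cleavage, 0 were 2-fold higher on NL-SFMA and 3 lower, against 15.1% and 19.4% of all genes tested. The gamma-secretase subunits Psenen (30.1, 18.4, 17.3 and 11.6 FPKM) and Aph1a (48.6, 38.7, 43.9 and 20.01 FPKM) were lowest there. Psenen has a model of 626 bases, and with the length trend subtracted its log2 difference was -0.11 in place of -1.37. That of Aph1a was -0.69 in place of -1.28, so neither gene was then past 2-fold. On that scale 1 of the 7 cleavage genes was 2-fold higher and 1 lower, against 11.8% and 11.6% of all genes tested. Of 5 cadherin and neuroligin partners 2 were 2-fold higher on NL-SFMA and 0 lower, against 15.1% and 19.4% of all genes tested. These were the N-cadherin gene Cdh2, with a log2 difference of 1.29 (1.02 with the length trend subtracted), and the postsynaptic adhesion gene Nlgn1, at 2.69, 3.61, 3.58 and 6.04 FPKM. With the length trend subtracted 2 of the 5 were still higher and 0 lower, against 11.8% and 11.6%. Cdh11 was at 7.26, 7.91, 9.14 and 11.5 FPKM.

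The cortical label was checked against cell type markers. All 8 excitatory neuron, 5 pan-neuronal, 8 interneuron and 9 radial glia and progenitor markers were at 1 FPKM or more in each library. Summed marker levels in CPM differed between libraries. Excitatory neuron markers were at 1572, 2049, 2274 and 2146 CPM in the same order of hydrogels, and pan-neuronal markers at 5285, 7663, 6539 and 7256. The median log2 difference of the 5 pan-neuronal markers on NL-SFMA was 0.04, with the long genes Map2 (1.99) and Dcx (1.961) higher and Stmn2 (0.04), Tubb3 (-0.18) and Rbfox3 (-0.50) near or below 0. With the length trend subtracted this median was 0.64, and of the 5 only Rbfox3 was below 0, at -0.30. Radial glia markers were at 2796, 1472, 1456 and 1562 CPM and interneuron markers at 492, 423, 405 and 257. Their median log2 differences on NL-SFMA were -0.84 and -0.73 as counted, and -0.41 and -0.18 with the length trend subtracted. That of the excitatory markers was 0.52 on both scales. Some members went against their sums. In the radial glia list, where Vim had the most reads, Eomes had log2 differences of 1.10, 1.09 and 0.48. Hes5 had 0.78 and Nes 0.07 on L-SFMA. In the excitatory list Fezf2 had -0.47, -0.39 and -0.71, and on NL-SFMA Slc17a7 had -0.36 and Neurod2 -0.15. Of the interneuron markers, Gad1 (0.31) and Lhx6 (0.15) were above 0 on NL-SFMA. Astrocyte (21.2 to 37.2 CPM), oligodendrocyte lineage (9.53 to 36.4), microglia (11.9 to 26.0) and endothelial and pericyte markers (4.67 to 6.77) were low, with C1qa, P2ry12 and Cdh5 at 0 reads in 1 library each. Erythroid markers were at 1522 CPM on SFMA and at 460, 259 and 197 CPM on the others. In bulk RNA fewer cells of a type and less RNA per cell cannot be told apart, and the part of cell make-up in the protocadherin differences was not tested.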

How the data were processed

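Per the submitters' processing notes, reads were handled with HISAT2 (no version given) and HTSeq 0.13.5, and the notes name the builds mRatBN7.2 and GRCh38 without a role. Their annotation, strand setting and filters were not given in the sources used. The deposited count column holds raw reads per gene. The deposited FPKM column equals that count divided by gene model length and summed counts, which was checked by recovering whole-number lengths within 2e-09 bases. Each library's counts were divided by their sum (CPM). Genes with at least 50 reads over the 4 libraries were tested, with 0.5 reads added before the log2 ratio, and 2-fold was counted. Intervals are exact (Clopper-Pearson for ratios and shares, Poisson for FPKM) at 95%, except that the interval for the difference between log2 ratios is a normal approximation from the 4 read counts. No molecular identifiers are recorded, so reads may be PCR copies, and the intervals and the floor of 3 reads (0.171 to 0.212 CPM) cover counting error only. The length trend was a lowess fit (fraction 0.3, statsmodels 0.14.6) of the log2 ratio on log2 length over all genes tested, checked on simulated data. TMM and median-ratio factors came from edgeR 4.0.16. Described individually were non-clustered members of at least 0.5 FPKM, the Pcdha and Pcdhg models, in Pcdhb the 4 highest by mean FPKM and the 3 at each end of the NL-SFMA difference, and up to 3 genes of at least 5 FPKM per list. A further gene that this rule names is not reported here. Pcdh7, Pcdh15, Pcdhb9, Pcdhb6, Pcdhb11, Rad21, Smc1a and Smc3 were named after their values were seen. The radial glia, excitatory and interneuron markers named singly were also picked after their values were seen. Members and lists were chosen with earlier results of these data known. There was 1 library per hydrogel, so no test between hydrogels was made. Of 29 symbols, 28 were found in the RefSeq table (GRCr8), and Pcdha5 is a synonym there.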

Additional observations from a re-analysis of the deposited data

Results flagged for a closer look

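In 3 members the difference that goes with N had opposite signs as counted without and with L, each beyond counting error. With 1 library per hydrogel this was not tested. The share of all genes with such opposite signs was not counted, so these members are not set apart from genes at large. Over all genes tested with a read in each library, the log2 ratio with L lay below that without L for 40.6%. For Pcdh8 the log2 ratio with L minus that without L was -1.29 (95% counting interval -1.46 to -1.12). For Pcdh1 it was -0.93 (-1.19 to -0.68). For Pcdhga5 it was -0.81 (-0.88 to -0.74), but its signs were the same, -0.64 and -0.93, with the length trend subtracted.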

How the results depend on the processing

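No paired analysis was possible because each hydrogel has 1 library. The medians of the clustered and non-clustered members stayed above 0 against SFMA under each alternative, and TMM scaling, median-ratio scaling, a total without mitochondrially encoded genes, a 10-read filter and 2 added reads left medians within 1.5-fold and counts within 1.5 times. Subtracting the length trend moved the non-clustered median on NL-SFMA from 1.68 to 0.92. It changed the members 2-fold higher from 11 to 5 on L-SFMA and from 3 to 5 on N-SFMA, and made 1 member (Pcdhga5) 2-fold lower on L-SFMA and 1 on NL-SFMA. It also turned Pcdha5 to -0.34 on L-SFMA and -0.32 on NL-SFMA. On log2(FPKM + 1), which understates low genes, with genes of at least 1 FPKM, the non-clustered median on NL-SFMA was 0.94, and 0, 2 and 5 members were 2-fold higher on N-SFMA, L-SFMA and NL-SFMA in place of 3, 11 and 16. A filter of 200 reads left 7 on L-SFMA, with fewer members tested. At 1.5-fold, 16 members were higher on N-SFMA and 22 on L-SFMA, against 1706 and 2890 of all 13297 genes tested. Among the 2900 genes in the length range of the non-clustered members, 705 and 1245 were. For the log2(FPKM + 1) scale and the 200-read filter the share of all genes was not counted. Taking Pcdhb genes alone, an alternative chosen after seeing the data, moved no clustered median by more than 1.5-fold.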
